A study of Mus musculus with 6 samples.

Results

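A set of 10 genes that T cells switch on soon after their antigen receptor is engaged were followed across the 6 RNA-seq libraries of regenerated T cells. They were taken by name from the expression table as Egr1, Egr2, Egr3, Nr4a1, Nr4a2, Nr4a3, Nab2, Ier2, Ier5 and Myc, and all 10 were found among its 23420 rows. The libraries were made from polyadenylated RNA of 1000 sorted cells each, 3 of CD4 single-positive (CD4SP) and 3 of CD8 single-positive (CD8SP) induced T (iT) cells. The donor cells were hematopoietic progenitors made in culture from iR9 embryonic stem cells of C57BL/6 background (CD45.2), which carry Runx1-p2a-Hoxa9 in Rosa26 under doxycycline control with rtTA driven by the CAG promoter. Doxycycline was given during culture, and the transplantation of these progenitors is described without it, although 1 other set of recipients was fed it and the mice behind these libraries are not singled out. Recipients were sublethally irradiated B-NDG mice, 8 to 10 weeks old at transplantation, a CD45.1 NOD strain with the Prkdc scid mutation and no Il2rg, which therefore makes no T, B or NK cells of its own. About 5 weeks after transplantation, spleen cells that were CD45.2+ and CD4+ or CD8+ and negative for lineage markers that included Ter119 and CD11b were sorted. Both populations share the edited line, the host and the irradiation, the sort used no marker of activation or of regulatory T cells, and no stimulation of the sorted cells is described.

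EGR1, EGR2 and EGR3 are zinc finger transcription factors that bind GC-rich DNA, and NR4A1, NR4A2 and NR4A3 are orphan nuclear receptors. Their genes belong to the immediate-early class, which needs no new protein synthesis to be transcribed and is driven by serum response factor with its ETS partners, by CREB-type factors and, downstream of calcium, by NFAT and MEF2. In T cells, Nr4a1 transcription is widely used as a reporter of recent antigen receptor signals, and EGR and NR4A factors are also known for restraining activated T cells and for roles in tolerance and regulatory T cells. NAB2 binds EGR proteins and represses their activity, IER2 and IER5 are products of other immediate-early genes, and MYC drives growth and ribosome production in dividing lymphocytes.

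The bases before the start sites of Egr2, Nr4a1, Nr4a2 and Nr4a3 are shown because these genes belong to the same 2 families and are known to answer the same signals. As described further on, Egr2 and Nr4a1 were higher in CD4SP, Nr4a2 overlapped between the 2 populations and Nr4a3 was too low to be tested. The sequences come from the RefSeq promoter table for mouse GRCm38.p6, in which 6 of the 10 genes had an entry (Egr2, Nr4a1, Nr4a2, Nr4a3, Nab2 and Ier5). The 250 bases before each start site were searched on both strands for the CArG box bound by serum response factor, GCGNGGGCG (EGR site), TGACGTCA (cyclic AMP response element, CRE), AAAGGTCA (NR4A site), CACGTG (E-box bound by MYC and MAX), TATAAA and TTCCGG (ETS core). The start sites are those of RefSeq, and those used for Egr2 and Nr4a1 lie inside the wider gene spans that GENCODE gives. TGACG, the CRE half-site, which a full CRE holds on both strands, was added after these sequences had been read. Each is printed 5′ to 3′ on the strand of its gene, with matches on either strand in capitals, from chr10:67537619-67537868 (plus strand), chr15:101266596-101266845 (plus strand), chr2:57124004-57124253 (minus strand) and chr4:48045055-48045152 (plus strand, the 98 bases that lie before the first annotated exon).
Egr2: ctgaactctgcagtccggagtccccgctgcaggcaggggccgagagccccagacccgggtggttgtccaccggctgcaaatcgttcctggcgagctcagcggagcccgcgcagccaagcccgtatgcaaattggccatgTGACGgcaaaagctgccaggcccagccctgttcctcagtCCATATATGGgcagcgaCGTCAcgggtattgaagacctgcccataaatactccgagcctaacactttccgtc
Nr4a1: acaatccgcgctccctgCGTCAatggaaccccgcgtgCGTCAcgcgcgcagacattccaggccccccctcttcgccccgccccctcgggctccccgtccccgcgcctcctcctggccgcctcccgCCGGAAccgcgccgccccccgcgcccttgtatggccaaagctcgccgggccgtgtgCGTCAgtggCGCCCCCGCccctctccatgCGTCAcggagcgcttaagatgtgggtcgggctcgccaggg
Nr4a2: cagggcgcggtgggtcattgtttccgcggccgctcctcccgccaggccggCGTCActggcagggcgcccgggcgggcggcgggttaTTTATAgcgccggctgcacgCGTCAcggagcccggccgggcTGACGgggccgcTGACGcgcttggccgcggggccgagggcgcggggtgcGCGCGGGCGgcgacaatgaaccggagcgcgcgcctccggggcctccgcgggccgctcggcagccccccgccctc
Nr4a3: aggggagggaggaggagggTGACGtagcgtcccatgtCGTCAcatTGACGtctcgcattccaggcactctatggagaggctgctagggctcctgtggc

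The Egr2 sequence held a CArG box at positions -72 to -63 from the start site and TGACG beginning at -111 and -55. A CArG box was found in 1.47% of the 32851 promoter windows of this length. The Nr4a1 window held TGACG 4 times, beginning at -233, -213, -69 and -40, a GCGNGGGCG match at -60 and a TTCCGG match at -125. The Nr4a2 window also held TGACG 4 times, beginning at -200, -144, -123 and -111, with a TATAAA match at -164 and a GCGNGGGCG match at -74. In the Nr4a3 window there were again 4, at -231, -213, -205 and, within an annotated exon and not printed, -147. At least 1 TGACG was found in 17.8% of all windows and at least 4 in 45 windows (0.137%). Because TGACG was picked from these sequences, and the 3 Nr4a windows are 63.6 to 80.0% G and C, these shares are a description and no evidence of enrichment. No searched window of the 6 genes held TGACGTCA (1.55% of all windows) or AAAGGTCA (1.34%), and the Ier5 window held no match to any motif searched. GCGNGGGCG was found in 4.7% of windows, TATAAA in 12.4%, TTCCGG in 12% and CACGTG in 6.02%. A second Egr2 start site upstream, at base 67537566, had a CArG box of its own, also at -72 to -63, and 3 TTCCGG matches. The window of the start site farthest upstream, at base 67535499, held no CArG box and a single match, CACGTG at -27, which lies in an annotated exon. These matches are letters in a window, not measured binding.

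**Figure D1:**
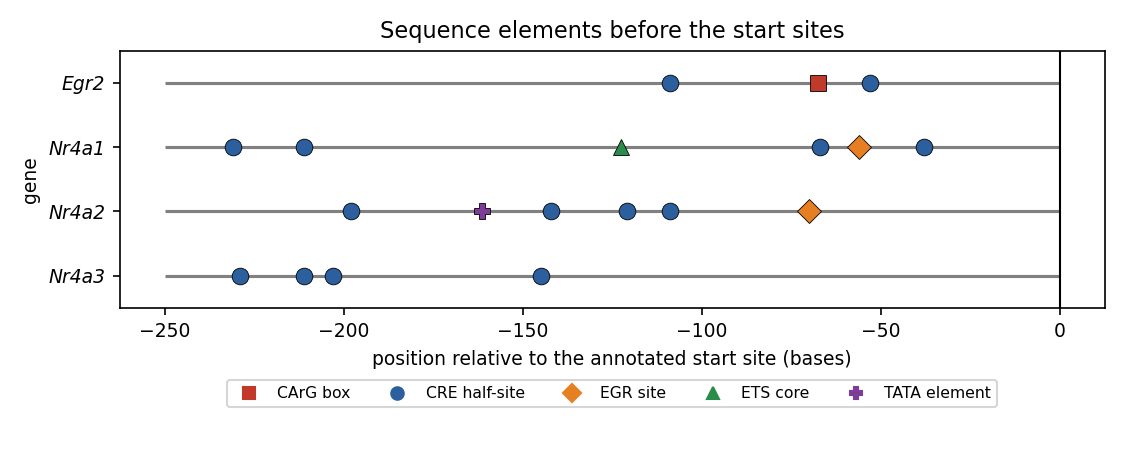
Positions of motif matches in the 250 bases before the start sites of Egr2, Nr4a1, Nr4a2 and Nr4a3; the horizontal axis is the position relative to the start site in bases, each line is 1 gene and each symbol is a match on either strand. Each Nr4a line carries 4 CRE half-sites, and the CArG box appears on the Egr2 line.

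Values are TPM, a measure of transcript abundance corrected for gene length and scaled to a fixed total per library. Levels can thus be compared between genes, and between libraries only as shares of that total. Between 9971 and 10649 genes reached 1 TPM per library. Sequencing depth is not kept in TPM and is unknown here. All 9 T cell markers looked at, among them Cd3d, Cd3e, Lck and Thy1, were present in every library, with a summed level of 8056 to 8369 TPM in CD4SP and 6572 to 7459 TPM in CD8SP libraries, whereas the B cell genes Ms4a1 and Pax5 were listed at 0 throughout. Transcripts of 83 ribosomal protein genes made up 23.5 to 28.3% of TPM in CD4SP and 31.4 to 35.3% in CD8SP libraries, and the median difference of the 10476 tested genes lay at 0.28 on the log2 scale toward CD4SP. Differences are log2 fold changes of TPM + 1 from limma, positive where CD4SP was higher, and a gene was called at a Benjamini-Hochberg adjusted p under 0.05 over all tested genes together with a difference over 2-fold. The study calls its libraries biological replicates, but neither it nor the labels say whether they came from separate mice, so the p-values measure the spread between these libraries.

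Egr1, Egr2, Nr4a1 and Nab2 were higher in CD4SP iT cells, and none of the 10 genes was called higher in CD8SP iT cells. Nr4a2 and Myc were not called and their libraries overlapped, and Egr3 and Nr4a3 were at or near 0. Of the 10 genes, 8 passed the filter on low values (at least 1 TPM in at least 3 libraries). Those called were 4, against 7.92% of all tested genes called in that direction and 9.73% in either. The libraries of the 2 populations did not overlap for 6 genes, Egr1, Egr2, Nr4a1, Nab2, Ier2 and Ier5, all higher in CD4SP, where 36.6% of all tested genes did not overlap in that direction and 43.2% in either. By adjusted p alone, 5 were higher in CD4SP, against 17.6% of all tested genes in that direction and 20.8% in either. Because each library is a bulk of 1000 cells, fewer cells that express a gene and less RNA of it per cell cannot be told apart.

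**Figure D2:**
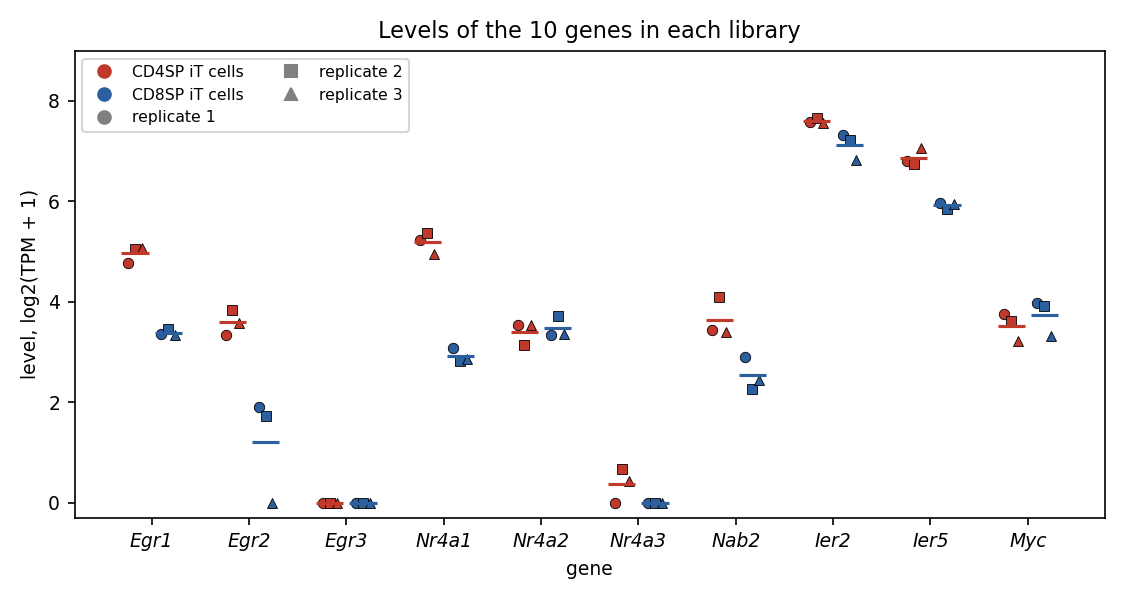
Level of each of the 10 genes in each library as log2(TPM + 1); points are libraries, shapes mark the replicate number and horizontal lines the mean of 3 libraries. CD4SP points lie above all CD8SP points for Egr1, Egr2, Nr4a1, Nab2, Ier2 and Ier5, and the 2 sets overlap for Nr4a2 and Myc.

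Egr1, an EGR gene whose transcription follows ERK signaling, lies on chromosome 18. CD4SP replicates 1 to 3 held 26.5, 32.3 and 32.5 TPM of it, and CD8SP replicates 1 to 3 held 9.27, 10.03 and 9.11 TPM. Every CD4SP library was thus well above every CD8SP library, and the CD8SP libraries lay close together. The means were 30.4 ± 3.44 TPM and 9.47 ± 0.492 TPM (SD, n = 3 each), a log2 difference of 1.58 (limma, SE 0.168, adjusted p = 0.000581). Relative to the median of all tested genes, the difference was 1.3. It was called under every alternative tried, with a range of 1.24 to 1.67.

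Egr2 (chr10:67535475-67542188, plus strand), an EGR factor associated with anergy and peripheral tolerance of T cells, was the other EGR gene called. Its level in CD4SP replicates 1 to 3 was 9.17, 13.3 and 11.02 TPM. In CD8SP replicates 1 and 2 it was at 2.73 and 2.32 TPM, and in replicate 3 it was listed at 0. The 2 populations did not overlap. The log2 difference was 2.38 (limma, SE 0.476, adjusted p = 0.0104), and its error was the widest of the 8 tested genes. Without CD8SP replicate 3 the log2 fold change was 1.78 with a limma adjusted p of 0.00714. With a pseudocount of 0.1 the value was 3.66, and the limma adjusted p of 0.0611 no longer met the threshold.

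Egr3 (chr14:70077203-70082614, plus strand), the EGR factor that is often induced together with Egr2, was listed at 0 in all 6 libraries and could not be tested. The summed Egr level thus rested on Egr1 and Egr2, and reached 35.6 to 45.6 TPM in CD4SP against 9.11 to 12.4 TPM in CD8SP libraries. Egr1 made up 74.3, 70.8 and 74.7% of it in CD4SP replicates 1 to 3 and 77.3, 81.2 and 100% in CD8SP replicates 1 to 3. The share was lower in every CD4SP library, with a mean difference of -12.9 percentage points and an exact two-sided permutation p of 0.1, the smallest that 3 libraries against 3 allow. Without CD8SP replicate 3, where Egr2 was listed at 0, the difference was -5.98 points.

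Among the nuclear receptor genes, Nr4a1 was called and Nr4a2 was not. Nr4a1 (chr15:101254269-101274795, plus strand), which encodes NUR77, reached 36.6, 40.4 and 30.1 TPM in the CD4SP libraries, replicates 1 to 3, and 7.48, 6.09 and 6.26 TPM in the CD8SP libraries. The lowest CD4SP library was far above the highest CD8SP library. Means were 35.7 ± 5.18 TPM and 6.61 ± 0.756 TPM (SD, n = 3 each), and the log2 difference of 2.26 (limma, SE 0.185, adjusted p = 0.000154) had the smallest adjusted p of the 10 genes. It was called under every alternative tried, between 1.92 and 2.41.

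Nr4a2 (chr2:57106830-57124003, minus strand), which encodes NURR1, had levels of 10.6, 7.82 and 10.6 TPM in the CD4SP libraries, replicates 1 to 3. In CD8SP replicates 1 to 3 it was at 9.12, 12.2 and 9.20 TPM. The libraries overlapped, the highest and the second lowest belonging to CD8SP and the lowest to CD4SP. The log2 difference was -0.07 (limma, SE 0.214, adjusted p = 0.843). Its sign turned without CD4SP replicate 2 (0.07) and without CD8SP replicate 2 (0.06), and it was -0.35 under median-of-ratios rescaling and -0.43 under quantile normalization, none of these called. Nr4a3 (chr4:48045153-48086447, plus strand), which encodes NOR1, was listed at 0 in CD4SP replicate 1, at 0.590 and 0.357 TPM in replicates 2 and 3, and at 0 in every CD8SP library. It was too low to be tested.

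The makeup of the family was compared as well as its amount. The summed Nr4a level was 41.1 to 48.8 TPM in CD4SP and 15.5 to 18.3 TPM in CD8SP libraries. Nr4a1 made up 77.5, 82.8 and 73.3% of it in CD4SP replicates 1 to 3 and 45.1, 33.2 and 40.5% in CD8SP replicates 1 to 3. The mean shares were 77.9 ± 4.74% and 39.6 ± 5.96% (SD, n = 3 each), a difference of 38.3 percentage points with an exact two-sided permutation p of 0.1, again the smallest possible. Leaving out each library in turn kept it between 35.1 and 40.99 points. Nr4a2 was the larger part of the family in every CD8SP library, and Nr4a1 was the larger part in every CD4SP library.

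**Figure D3:**
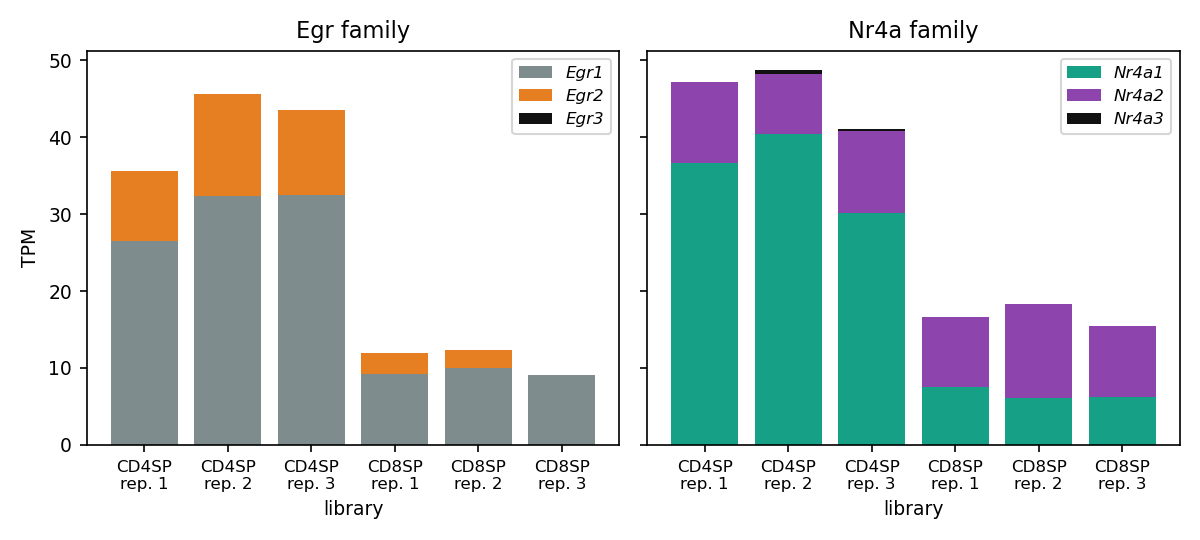
Summed TPM of the Egr family (left) and the Nr4a family (right) in each library, stacked by gene from 0; each bar is 1 library. Nr4a1 makes up 73.3 to 82.8% of the CD4SP bars and 33.2 to 45.1% of the CD8SP bars, and the Nr4a2 segments are 7.82 to 12.2 TPM high.

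Nab2 (chr10:127660918-127668568, minus strand), the EGR corepressor and itself an EGR target, had levels of 9.87, 16.1 and 9.59 TPM in the CD4SP libraries, replicates 1 to 3. In CD8SP replicates 1 to 3 it was at 6.52, 3.82 and 4.48 TPM. The populations did not overlap, although CD4SP replicate 2 stood well above the other CD4SP libraries. The means of 11.9 ± 3.70 TPM and 4.94 ± 1.41 TPM (SD, n = 3 each) gave a log2 difference of 1.10 (limma, SE 0.274, adjusted p = 0.0251). The call was lost under 8 of 17 alternatives, among them without CD4SP replicate 2 (0.88), without CD8SP replicate 2 (0.97) and without CD8SP replicate 3 (1.06). Nab2 also shares exonic sequence on the opposite strand with Stat6, Nemp1 and the antisense gene Gm16229, and whether counting used strand is not stated, so reads of these genes cannot be kept apart and its value is uncertain. Stat6, a transcription factor of interleukin-4 signaling, was itself at 86.2 to 95.3 TPM in CD4SP and 49.7 to 69.9 TPM in CD8SP libraries (log2 difference 0.54, adjusted p = 0.0428 by limma). The related corepressor gene Nab1 was at 48.3 to 60.5 TPM in CD4SP and 47.7 to 55.5 TPM in CD8SP libraries, which overlap (log2 difference 0.12, adjusted p = 0.576 by limma).

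Ier2 and Ier5 were the most abundant of the 10 genes and were also higher in every CD4SP library, by less than 2-fold. Ier2 (chr8:84661331-84662852, minus strand) reached 192, 202 and 189 TPM in the CD4SP libraries, replicates 1 to 3, and 159.8, 148 and 113 TPM in the CD8SP libraries. The libraries did not overlap, but the log2 difference was 0.48 (limma, SE 0.147, adjusted p = 0.0503), not called, and 0.20 above the median of all tested genes. Ier5 (chr1:155096361-155099636, minus strand) had levels of 110.3, 106 and 132 TPM in the CD4SP libraries, replicates 1 to 3. In CD8SP replicates 1 to 3 it was at 61.4, 56.7 and 60.9 TPM. Its log2 fold change of 0.94 (SE 0.133) had a limma adjusted p of 0.00231 and fell just short of 2-fold. Ier5 was higher in all 3 CD4SP libraries, and without CD4SP replicate 2 its log2 fold change was 1.01 and it was called.

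Myc (chr15:61985391-61990374, plus strand), also an immediate-early gene, showed no such order. CD4SP replicates 1 to 3 held 12.4, 11.2 and 8.29 TPM, and CD8SP replicates 1 to 3 held 14.8, 14.2 and 9.02 TPM. The lowest library of all was CD4SP and the highest CD8SP, and the sets overlapped. With means of 10.7 ± 2.14 TPM and 12.7 ± 3.17 TPM (SD, n = 3 each), the log2 difference was -0.22 (limma, SE 0.247, adjusted p = 0.55), between -0.58 and -0.06 over the alternatives and never called.

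**Figure D4:**
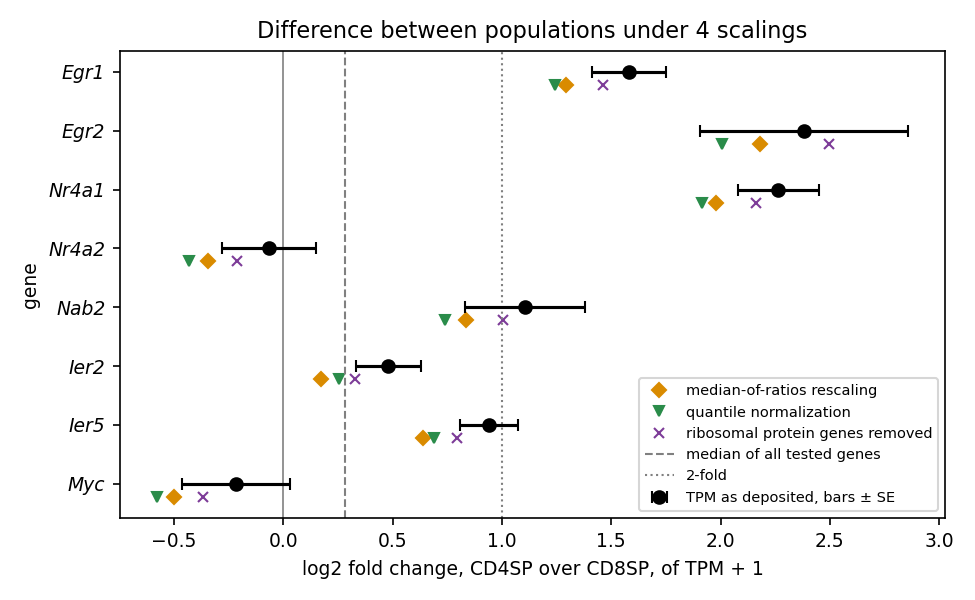
Log2 fold change of TPM + 1, CD4SP over CD8SP, of the 8 tested genes; black points with bars are the values as deposited ± SE, other symbols 3 rescalings, the dashed line the median of all tested genes (0.28) and the dotted line 2-fold. Egr1, Egr2 and Nr4a1 stay beyond 2-fold under all 3 rescalings, whereas Nab2 moves to between 0.74 and 1.01.

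Ordered by level, the CD4SP libraries held Ier2 (189 to 202 TPM) above Ier5 (106 to 132 TPM), and both above Nr4a1 (30.1 to 40.4 TPM) and Egr1 (26.5 to 32.5 TPM), which overlapped each other. Egr2, Nab2, Myc and Nr4a2 followed with overlapping ranges between 7.82 and 16.1 TPM. In CD8SP libraries Ier2 (113 to 159.8 TPM) and Ier5 (56.7 to 61.4 TPM) again came first. Behind them Myc, Nr4a2 and Egr1 overlapped between 9.02 and 14.8 TPM, and Nr4a1 lay beneath them, overlapping Nab2. Nr4a1 thus came right after Ier2 and Ier5 by mean level in CD4SP and below Myc, Nr4a2 and Egr1 in CD8SP. Among the tested genes of each library, Nr4a1 stood at percentiles 59.9 to 70.7 in CD4SP and 28.8 to 33.0 in CD8SP, and Egr1 at percentiles 56.7 to 65.8 and 37.9 to 39.3. Nr4a2, which was not called, had percentiles 31.3 to 33.7 in CD4SP and 37.6 to 43.9 in CD8SP, which do not overlap. The percentiles of Myc overlapped, at 28.1 to 39.6 and 39.0 to 49.0.

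Several other immediate-early genes were also higher in CD4SP iT cells. Of 25 listed, 22 were tested, 8 were called with CD4SP higher and none with CD8SP higher, with a median log2 fold change of 0.86 against 0.28 for all tested genes. The share called was 36.4%, against 9.73% over the table. The dual-specificity phosphatase genes Dusp5 (1.79) and Dusp1 (1.60), which switch off MAP kinases, were higher in CD4SP, as were the zinc finger factor gene Klf4 (1.73) and the NF-kappaB inhibitor genes Nfkbia (1.47) and Nfkbid (1.005). The AP-1 and CREB-like genes Fos (1.33), Junb (1.12) and Atf3 (1.40) completed the group. Atf3 was at 2.36 to 3.18 TPM in CD4SP and at most 0.813 TPM in CD8SP libraries. Dusp5 was at 3.23 to 3.99 TPM in CD4SP and at most 1.25 TPM in CD8SP libraries. Both were low and passed the filter on low values only through CD4SP. With a filter of 5 TPM, 6 genes of the list were called. Fos reached 158.7, 143 and 141 TPM in the CD4SP libraries, replicates 1 to 3, and 61.8, 63.2 and 50.1 TPM in the CD8SP libraries, which do not overlap. Dusp2, the phosphatase gene with the highest level of the list, was at 401 to 429 TPM in CD4SP and, higher in each library, at 462 to 480 TPM in CD8SP (log2 fold change -0.17, not called). Zfp36 (0.98) and Btg2 (0.91), which speed the decay of transcripts and slow division respectively, did not reach 2-fold. Junb and Nfkbid were not called under any of the 3 rescalings, which left 5 or 6 genes of the list.

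Transcripts of the signaling proteins and factors that drive these genes were looked at next. Of 23 listed, 22 were tested and 3 were called with CD4SP higher and none with CD8SP higher, with a median of 0.36. The share called was 13.6%, near the 9.73% of all tested genes, and the median was near their 0.28. Crem, a CREB-family gene, was at 30.6 to 40.3 TPM in CD4SP and 10.1 to 14.5 TPM in CD8SP libraries (log2 fold change 1.57). Nfatc1, a calcium-dependent factor gene that NFAT itself induces, had a log2 fold change of 1.37, and Rasgrp1, which activates RAS in T cells, one of 1.03 that no rescaling kept as a call. The ETS factor gene Elk3 was just under 2-fold (0.997). Srf, which encodes the factor that binds the CArG box, was at 20.4 to 27.7 TPM in CD4SP and 17.4 to 23.2 TPM in CD8SP libraries, which overlap (log2 fold change 0.26, not called).

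Dimer partners and antagonists of the EGR, NR4A and MYC factors formed another list. Of 14 listed, 12 were tested, 3 were called with CD4SP higher and none with CD8SP higher (median 0.34, near the 0.28 of all tested genes). These 3 genes are 25% of those tested, against 9.73% over the table. Mxd1 (1.36) and Mxd4 (1.16) encode repressors that compete with MYC for its partner MAX, and Rxra (1.14) encodes the retinoid receptor that pairs with NR4A1 and NR4A2. Max itself had a log2 fold change of 0.33 and Mxi1, another MYC antagonist, one of 0.65, neither called. A single gene of this list was called under median-of-ratios rescaling, under quantile normalization and without CD8SP replicate 3.

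Of 30 genes that have been linked to EGR or NR4A factors in T cells, 28 were tested, 10 were called with CD4SP higher and 1 with CD8SP higher (median 0.58, against 0.28 for all tested genes), 39.3% in all against 9.73% over the table. The largest differences were in Ikzf2 (2.79) and Ikzf4 (2.30), which encode Helios and Eos, Ctla4 (2.64), an inhibitory receptor, and Spry1 (2.25), a RAS pathway inhibitor. Cd5, a negative regulator whose level follows antigen receptor signals, was at 305 to 411 TPM in CD4SP and 94.95 to 124 TPM in CD8SP libraries (log2 fold change 1.63). Ndrg1 (1.33), Nfil3 (1.32), Bcl6 (1.24), Rgs16 (1.15) and Socs1 (1.02) were the others called, Socs1 under none of the 3 rescalings. Spry1 was at 2.87 to 6.49 TPM in CD4SP and at most 0.265 TPM in CD8SP libraries. Bcl6 was at 2.04 to 3.16 TPM in CD4SP and at most 0.676 TPM in CD8SP libraries. Both were low and passed the filter on low values only through CD4SP. With a filter of 5 TPM, 9 genes of the list were called. The relative of Spry1, Spry2, went the other way, at 0.320 to 1.78 TPM in CD4SP and 5.77 to 8.10 TPM in CD8SP libraries (log2 fold change -1.96). Cblb, a ubiquitin ligase gene of anergy, had a log2 fold change of 0.04, and Pdcd1, which encodes PD-1, one of 0.47, neither called. Tnfrsf9, which encodes 4-1BB, had 1.65 with a limma adjusted p of 0.0714. Under quantile normalization 6 genes of the list were called.

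MYC target genes were looked at beside Myc itself. All 25 were tested, none was called with CD4SP higher and 2 with CD8SP higher, the DNA repair gene Apex1 (-1.25) and the pyrimidine synthesis gene Cad (-1.04), where 1.8% of all tested genes were called in that direction. The median was -0.25, below that of all tested genes. The libraries did not overlap for 13 of the 25 with CD8SP higher, against 6.61% of all tested genes, and for 5 with CD4SP higher, against 36.6%. Among the first were genes of ribosome assembly, such as Fbl, at 134 to 168 TPM in CD4SP and 205 to 254 TPM in CD8SP libraries (-0.60), Nop56 (-0.65) and Npm1 (-0.57). Srm, a polyamine synthesis gene, had -0.84, while Odc1, another of that pathway, had 0.59 and the cyclin gene Ccnd2 0.67, none of them past 2-fold. The 2 calls were both lost without CD4SP replicate 2, CD4SP replicate 3, CD8SP replicate 1 or CD8SP replicate 2, and 1 gene of the list was called without CD8SP replicate 3. Under median-of-ratios rescaling and quantile normalization 3 were called, Apex1 (-1.55 and -1.56), Cad (-1.33 and -1.37) and Srm (-1.14 and -1.09). The share of ribosomal protein transcripts given above was also higher in CD8SP libraries, and its part in this result was not tested.

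**Figure D5:**
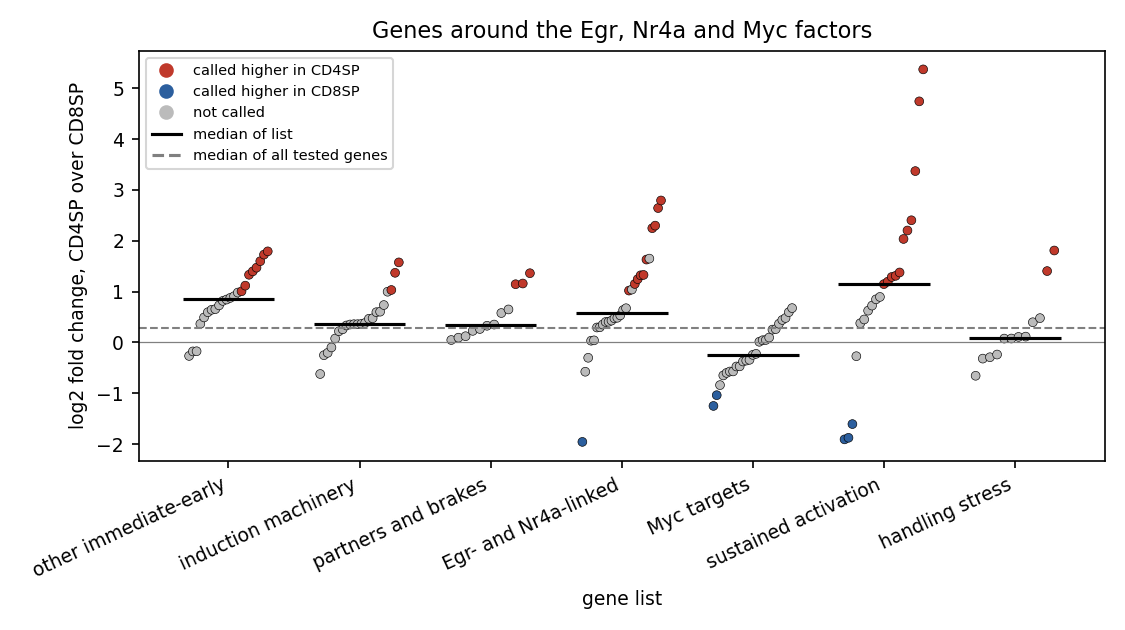
Log2 fold change of each tested gene, CD4SP over CD8SP, in 7 gene lists around the Egr, Nr4a and Myc factors; each point is 1 gene colored by its call, short lines are list medians and the dashed line is the median of all tested genes (0.28). The medians run from -0.25 for Myc targets to 1.15 for sustained activation.

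Genes of sustained T cell activation were called in both directions. Of 21 tested, 11 were called with CD4SP higher and 3 with CD8SP higher (median 1.15, against 0.28 for all tested genes), where the shares over the table were 7.92% and 1.8%. Higher in CD4SP were Cd40lg (5.37), the helper ligand gene, Tnfrsf4 (4.74), Il2ra (3.37), Icos (2.40), Tnfrsf18 (2.20) and Il2 (2.03), together with Nfkb1 (1.38), Bhlhe40 (1.31), Myb (1.29), Irf4 (1.19) and Cd44 (1.15), and higher in CD8SP were the chemokine genes Ccl3 (-1.91), Xcl1 (-1.88) and Ccl4 (-1.61). Cd44 was called under none of the 3 rescalings, Irf4 under 1 and Myb under 2. Cd40lg was at 40.1 to 53.4 TPM in CD4SP and at most 0.389 TPM in CD8SP libraries. It passed the filter on low values only through CD4SP, and the size of its fold change depends on the pseudocount. Cd69, an early surface marker of activation, was at 228 to 270.4 TPM in CD4SP and 151 to 172 TPM in CD8SP libraries, without overlap, and its log2 fold change of 0.62 (limma adjusted p = 0.00876) was under 2-fold.

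Markers of regulatory T cells and genes of handling stress were looked at beside the higher Egr and Nr4a1 levels. Regulatory T cell markers were called higher in CD4SP for 12 of 13 genes (7.92% over the table), with a summed level of 4073 to 4490 TPM in CD4SP and 661 to 762 TPM in CD8SP libraries; 3 of them (Ctla4, Ikzf2 and Ikzf4) are also in the list linked to EGR and NR4A, and 3 (Il2ra, Tnfrsf4 and Tnfrsf18) in that of sustained activation. The exception was Foxp3, the defining factor of these cells, with 141.6, 6.56 and 167 TPM in the CD4SP libraries, replicates 1 to 3, and 7.48 to 10.05 TPM in the CD8SP libraries. The count was 13 of 13 without CD4SP replicate 2, with library weights and with a replicate block. Gpr83, which is in this count, was listed at 0 in every CD8SP library and passed the filter on low values only through CD4SP. CD4SP replicate 2, the library with low Foxp3, had the highest Egr2, Nr4a1, Nab2 and Ier2 and the lowest Ier5 and Nr4a2 of its group. Of the other regulatory T cell markers, Lrrc32 (62.5 TPM) and Gpr83 (27.9 TPM) were highest of the group in it, and Il10 (24.7 TPM), Ctla4 (814 TPM), Ikzf2 (35.6 TPM), Ikzf4 (7.02 TPM), Tnfrsf18 (712 TPM) and Nrp1 (56.1 TPM) lowest, each still above every CD8SP library. Without it Egr1 (1.54), Egr2 (2.26) and Nr4a1 (2.17) were still called. Handling stress genes had 2 of 12 tested genes called (16.7%, against 9.73% over the table), Gadd45b (1.81) and Rgs1 (1.40), both higher in CD4SP and both also inducible by receptor signals. None of the heat shock genes of that list was called, with Hspe1 at -0.66 and Dnajb1 at 0.48, Hspa1a at no more than 0.197 TPM, Hspa1b at no more than 1.40 TPM and Hspb1 listed at 0, and the summed level of the list overlapped (4189 to 5439 TPM in CD4SP, 4474 to 5078 TPM in CD8SP). The parts of regulatory T cells and of cell handling in the higher Egr and Nr4a1 levels were not tested.

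Dendritic cell markers were called higher in CD4SP for 4 of 6 tested genes, all of MHC class II (H2-Aa, H2-Ab1, H2-Eb1 and Cd74), and higher in CD8SP for Itgax, where the shares over the table were 7.92% and 1.8%. Xcr1 was not called (0.27). The list had 113 to 153 TPM summed in CD4SP, 50.5 to 63.2 TPM in CD8SP libraries, and Clec9a was listed at 0. Of 4 tested myeloid markers, Lyz2 was higher in CD4SP (1.68) and Cd68 in CD8SP (-2.41), with S100a8, S100a9 and Mpo listed at 0 and summed levels of 518 to 575 TPM and 301 to 404 TPM that were mostly Cst3. The B cell markers Ms4a1, Pax5, Cr2 and Fcer2a were listed at 0 in all 6 libraries. NK cell markers were called higher in CD8SP for 4 of 7 tested genes, Gzma, Klre1, Eomes and Klrb1c, against 1.8% over the table, and not for Klrk1 (-0.88), Fcer1g (-0.59) and Tyrobp (0.14). The list had 89.9 to 160.4 TPM summed in CD4SP and 1610.4 to 1935 TPM in CD8SP. Most of the CD8SP sum was Gzma, at 1471 to 1773 TPM there and 39.8 to 116 TPM in CD4SP. Ncr1, Klra4 and Klra8 were listed at 0. Markers of erythroid cells and platelets were too low to be tested, with sums of at most 1.11 TPM. The part of other cells in the differences of the 10 genes was not tested.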

How the data were processed

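The authors amplified cDNA of 1000 sorted cells per library, aligned reads to the mm10 genome with HISAT2, quantified genes with StringTie and deposited TPM, 1 column per library. Strand use and the treatment of reads shared between genes were not given in the sources used here. TPM keeps no depth, so no counting interval or floor could be computed. Groups came from the sample titles.

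Genes that reached 1 TPM in 3 or more of 6 libraries (10476 of 23420 rows) were fitted with limma 3.58.1 in R 4.3.3 on log2(TPM + 1), a scale that understates changes of low genes, with population as the only term, eBayes with a mean-variance trend and Benjamini-Hochberg adjustment over all tested genes. No count test was run because TPM are not counts. The fit was tested on simulated data. Shares within a family were compared by an exact two-sided permutation test, whose smallest p is 0.1. The 10 genes, the gene lists (other immediate-early genes, induction machinery, partners and antagonists, EGR- and NR4A-linked genes, MYC targets, sustained activation, handling stress and cell type markers) and the tests were chosen with earlier results of these data known. All 10 genes were named, and from each list of the pathway the called genes and at least the 4 with the largest change; other genes named were chosen after their values were seen. The alternatives tried were no filter on low values or one of 5 TPM, a pseudocount of 0.1, 3 rescalings (median-of-ratios, quantile normalization, ribosomal protein genes removed), a replicate block, weighting of libraries, no trend, adjusted p alone, CD8SP replicates 1 and 2 averaged, and each library left out in turn. GENCODE M21 gave positions on GRCm38, the assembly of mm10. Copies of each gene were sought with blastn 2.17.0 at 95% identity over at least 200 nt, and the sole match was between Nab2 and the antisense gene Gm16229, which overlaps it at the same locus. Comparison of protein sequences was not done here, and a single item is not reported here.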

Additional observations from a re-analysis of the deposited data

How the results depend on the processing

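Of 17 alternatives, all kept Egr1 and Nr4a1 called, and between 3 and 5 of the 10 genes were called (3 to 4 with a library left out). The count of called genes over the table was 1019, between 817 and 1202 with a library left out, and 2183 by adjusted p alone, which dropped the fold threshold. Egr2 lost its call with a pseudocount of 0.1 (3.66). Nab2 lost it under median-of-ratios rescaling (0.84), quantile normalization (0.74), removal of ribosomal protein genes (1.01), library weights (0.85), averaging of CD8SP replicates 1 and 2 (1.11), and without CD4SP replicate 2 (0.88), CD8SP replicate 2 (0.97) or CD8SP replicate 3 (1.06). Ier5 was called by adjusted p alone (0.94) and without CD4SP replicate 2 (1.01). The sign of Nr4a2 turned with library weights (0.011), without CD4SP replicate 2 (0.066) and without CD8SP replicate 2 (0.060), within a range of -0.13 to 0.07 with a library left out. The cause of these changes was not tested. Over all tested genes the median difference was 0.28 on the log2 scale and moved to 0.00017 under median-of-ratios rescaling, to -0.015 under quantile normalization and to 0.15 with ribosomal protein genes removed. Leaving out each library kept the Nr4a1 share difference between 35.1 and 40.99 points and the Egr1 share difference between -17.3 and -5.98 points. Same-numbered libraries were not paired by the labels, and their deviations correlated at 0.0515, -0.0168 and 0.0887; not every library correlated best with its own number. A replicate block gave 997 called genes, 4 of the 10 members of the set among them. Depth is unknown, so it cannot be said how far counting error limits Egr2, Egr3 and Nr4a3, the lowest of the 10 in CD8SP libraries.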

Other observations

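The genes whose levels ran most alike with the summed Egr level over the 6 libraries, among 4880 genes with a mean of at least 20 TPM, were Carhsp1, Epb4.1l2, Fam104a, Gata3 and Maf, with Pearson r of log2(TPM + 1) from 0.997 to 0.9995. For the summed Nr4a level they were Chd3, Serinc3, Pagr1a, Bmyc and Abcg1, with r from 0.997 to 0.998. These values describe 6 libraries that fall into the 2 sorted populations, which sets much of their likeness, and no test was made.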
